A study of Mus musculus with 12 samples.

Results

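The 5 genes described here, Txnip, Arrdc4, Mlxip, Mlxipl and Mlx, encode the glucose-responsive transcription factors MondoA and ChREBP, their dimer partner, and a pair of alpha-arrestins that they are known to control. They were chosen by name, with earlier results of these data known, and were found by gene symbol among the 24061 symbols that each count table lists. All 5 were found, and all 5 were among the 14107 genes that passed the filter on low counts. Hearts were taken from C57BL/6J males that were 2 to 4 months old and fed chow. In all, 6 libraries were from HKII+/- mice, which are heterozygous at the gene for hexokinase II (Hk2), and 6 were from HKII+/+ mice. How the HKII allele was made, and whether any cell type was targeted, is not given in the sources used here. The question asked of these genes was whether their transcripts differed between the genotypes, with and without the 2 libraries that the submitters marked as potential outliers, HKII+/- replicate 11 and HKII+/+ replicate 13.

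Hexokinases phosphorylate glucose on entry into the cell, and the product, glucose 6-phosphate, is thought to be the signal that lets MondoA (encoded by Mlxip) and ChREBP (encoded by Mlxipl) act in the nucleus. Both bind DNA only as dimers with MLX, at the carbohydrate response element, which is built from a pair of E-box-like half-sites. Txnip is their best known target. TXNIP binds thioredoxin and lowers glucose uptake by promoting the endocytosis of glucose transporters, which closes a feedback loop, and ARRDC4 is its closest relative with a similar role. MondoA is the form best known in muscle, and ChREBP in liver and fat.

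Counts summed to between 17263209 and 51556592 per library. Hk2 checked the labels: it lay at 255.7 to 354 CPM (counts scaled to a common library total) in the 5 unmarked HKII+/- libraries and at 471 to 542.5 CPM in the 5 unmarked HKII+/+ libraries. With TMM scaling it was at 652.6 CPM in HKII+/+ replicate 13 and at 568.2 CPM in HKII+/- replicate 11, not at the lower level of that label. With total counts as the only scaling, replicate 11 was at 446.5 CPM. That lay between the other HKII+/- libraries (271.5 to 351.2 CPM) and the HKII+/+ libraries (493.7 to 578.7 CPM). Without both marked libraries Hk2 was at 57.5% of its HKII+/+ level (95% interval 50.3 to 65.7%, edgeR adjusted p = 0.0165). Over all 12 libraries it was at 63.48% (95% interval 47.35 to 85.12%, edgeR unadjusted p = 0.0054). There Hk2 did not pass the adjusted threshold, so the main fit did not call even the gene named by the genotype. Heart muscle markers were abundant everywhere (summed level of 5 ventricular markers 58400 CPM or more), and stood at 165700 and 187400 CPM in replicates 11 and 13 against at most 82490 CPM elsewhere. Replicate 11 also held more of the 5 adipocyte markers (1465 against 417.9 to 576 CPM), of the 5 fibroblast markers (3792 against at most 1273 CPM) and of the 5 airway markers (260.2 against at most 1.71 CPM). The 7 atrial markers summed to 366.3 and 457.1 CPM in HKII+/- replicates 19 and 22. They summed to 17750 CPM in HKII+/- replicate 11 and to 2566 to 7397 CPM in the others. The labels do not say that the libraries came from separate animals, so p-values measure only the spread between these libraries.

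The DNA just upstream of each gene was read from RefSeq for GRCm38.p6, because the half-sites through which MondoA and ChREBP act can be seen there by eye. In the sequences that follow, capitals mark the half-site CACGNG on either strand, of which the E-box CACGTG is a special case, and the CCAAT box on either strand. The first 2 are the 250 bases before the start of Txnip (chr3:96557707-96557956, plus strand) and of Arrdc4 (chr7:68749239-68749488, minus strand). The other 3 are short stretches around half-sites of Mlx (chr11:101087242-101087263), Mlxipl (chr5:135089784-135089805, its CACGTG only) and, for comparison, Pklr (chr3:89136445-89136477), the liver pyruvate kinase gene in which this element was first studied.
Txnip promoter: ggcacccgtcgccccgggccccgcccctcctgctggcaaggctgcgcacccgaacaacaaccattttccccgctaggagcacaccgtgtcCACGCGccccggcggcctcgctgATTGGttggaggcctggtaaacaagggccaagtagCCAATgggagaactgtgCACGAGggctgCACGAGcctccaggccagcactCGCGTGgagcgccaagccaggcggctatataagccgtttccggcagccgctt
Arrdc4 promoter: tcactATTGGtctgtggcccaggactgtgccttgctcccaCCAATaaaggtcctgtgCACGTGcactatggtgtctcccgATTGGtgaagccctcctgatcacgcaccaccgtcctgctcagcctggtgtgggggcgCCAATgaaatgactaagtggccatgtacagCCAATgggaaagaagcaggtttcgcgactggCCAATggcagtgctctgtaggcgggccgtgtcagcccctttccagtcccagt
Mlx stretch: ggttggatCACGTGactgagcc
Mlxipl stretch: ctgccatcCACGTGctaaggag
Pklr stretch: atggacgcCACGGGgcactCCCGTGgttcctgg

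The Txnip window held 4 CACGNG half-sites, and 2 of them stood 5 bases apart, from 85 to 69 bases upstream of the start. Such a pair was found in 27 of the 32841 RefSeq windows of 300 bases (0.0822%), which belonged to 26 genes, among them Pklr, where it lay 170 to 154 bases upstream. CACGNG alone was in 27.5% of windows, CACGTG in 7.15% and CCAAT in 37.4%. The Arrdc4 window held 1 CACGTG, 193 to 188 bases upstream, no pair at that spacing, and 6 CCAAT boxes over both strands. Mlx held 1 CACGTG at 40 to 35 bases upstream. Of the 2 Mlxipl windows, the first held a CACGTG at 98 to 93 bases upstream and a CACGAG at 196 to 191. The second held no half-site. Mlxip held no CACGNG in its window. A match is a description of the letters and not of binding, which was not measured here.

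The plot of the 5 genes shows every library, and no gene separated the genotypes. Over all 12 libraries Hk2 did not separate them either, though it did without the marked ones. The share of all tested genes that overlap was not counted, so the overlap is only a description.

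**Figure D1:**
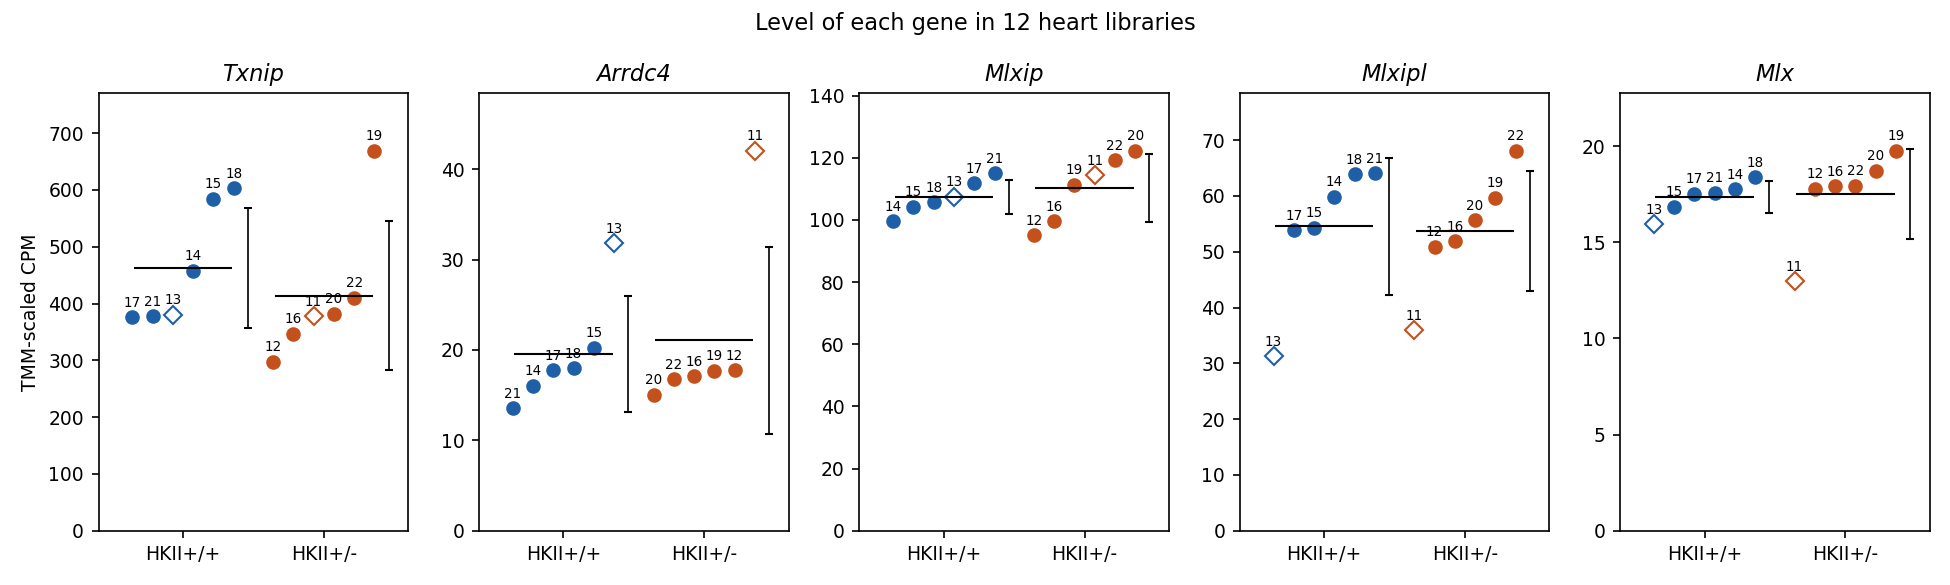
Level of each gene in CPM scaled by TMM (vertical axes, linear, from 0) for HKII+/+ and HKII+/- hearts; each point is 1 library with its replicate number, open diamonds are the 2 libraries marked by the submitters, lines are means and bars are 1 SD (n = 6 per genotype). The genotypes overlap in all 5 panels, and replicates 11 and 13 stand at the high end for Arrdc4 and at the low end for Mlxipl and Mlx.

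Txnip, the arrestin that restrains glucose uptake, was the most abundant of the 5 and the most variable between the unmarked hearts, and its level did not differ between the genotypes beyond that spread. Its gene lies at chr3:96557957-96561883 on the plus strand of GRCm38 (ENSMUSG00000038393.14). In HKII+/+ hearts Txnip was at 376.3, 378.2, 380.4, 457.6, 584.4 and 602.9 CPM in replicates 17, 21, 13, 14, 15 and 18. In HKII+/- hearts it was at 297.2, 346.7, 378.1, 382.1, 410.3 and 669.5 CPM in replicates 12, 16, 11, 20, 22 and 19. The lowest 2 HKII+/- libraries lay below every HKII+/+ library, and the highest, replicate 19, lay above every one. The means were 414 ± 131 CPM in HKII+/- and 463 ± 106 CPM in HKII+/+ (SD, n = 6 each). In edgeR this was a log2 fold change of -0.16 (SE 0.21, 95% interval -0.61 to 0.29, adjusted p = 1), which allows a level between 65.3% and 122% of HKII+/+. A transcript difference between heart samples could mean a different share of cells of a type or different RNA per cell, which cannot be told apart here.

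Of the 5 genes, 0 were called at an adjusted p below 0.05 in all 12 libraries, where 0% of the 14107 tested genes were called. At an unadjusted p below 0.05 it was also 0 of 5, against 0.262% of all genes (37 genes). With replicates 11 and 13 left out, 0 of 5 were called again, against 0.00707% of 14139 genes (1 gene, Hk2), and 0 of 5 had an unadjusted p below 0.05, against 2.8% of all genes (396 genes). Over all 12 libraries DESeq2 called 0 genes with 64 at an unadjusted p below 0.05, and limma voom called 0 with 33.

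The Txnip value depended on single unmarked libraries in both directions. It was -0.08 without HKII+/- replicate 12, -0.08 without HKII+/+ replicate 15 and -0.07 without HKII+/+ replicate 18, each left out alone (edgeR adjusted p = 0.9998, 1 and 1). Without replicates 11 and 13 its log2 fold change was -0.19 (SE 0.21, interval -0.65 to 0.27), close to the value over all libraries. Without HKII+/- replicate 19 alone it was -0.35 (SE 0.17, interval -0.72 to 0.02, edgeR unadjusted p = 0.0597, adjusted p = 0.9998). Without replicates 11, 13 and 19 it was -0.42 (SE 0.16, interval -0.76 to -0.07, edgeR unadjusted p = 0.0222, adjusted p = 0.9999). In that fit 413 of 14336 genes had an edgeR unadjusted p below 0.05. Replicate 19 was also the library lowest in atrial markers, and with the atrial marker level as a covariate the log2 fold change was -0.27 over 12 libraries and -0.35 without the marked ones (edgeR adjusted p = 1 and 0.8829). Replicates 19 and 22, the lowest in atrial markers, and replicate 11, the highest, were all HKII+/-. Both ends of the covariate thus came from HKII+/- libraries. Its part in the Txnip value was not separated from that of replicate 19. Leaving out replicates 11, 13, 19 and 22 gave -0.49 (SE 0.17, edgeR unadjusted p = 0.0148, adjusted p = 0.7063). There 1010 of 14378 genes had an edgeR unadjusted p below 0.05, and the left-out replicate 19 held the highest Txnip level. The log2 fold change of Txnip was below 0 in 37 of 37 settings, from -0.49 to -0.07. In 0 of them did it pass the adjusted threshold. All settings reuse the same libraries or a part of them, so the shared sign is not independent evidence of a difference.

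Arrdc4, the relative of Txnip, was not called different between the genotypes, and the 2 marked libraries carried nearly all of its spread. It lies at chr7:68736995-68749241 on the minus strand (ENSMUSG00000042659.15). In HKII+/+ hearts it was at 13.53, 16.03, 17.76, 17.98, 20.24 and 31.8 CPM in replicates 21, 14, 17, 18, 15 and 13. In HKII+/- hearts it was at 15.04, 16.75, 17.09, 17.68, 17.78 and 42.07 CPM in replicates 20, 22, 16, 19, 12 and 11. The marked library was the highest of each genotype, and the other 10 overlapped fully. Over all libraries the means were 21.1 ± 10.3 and 19.6 ± 6.40 CPM (SD, n = 6 each), and edgeR put the log2 fold change at 0.11 (SE 0.28, interval -0.51 to 0.72, adjusted p = 1). Without the marked libraries they were 16.9 ± 1.11 and 17.1 ± 2.50 CPM (SD, n = 5 each), and edgeR put it at -0.02 (SE 0.10, interval -0.23 to 0.19, adjusted p = 0.9999). The direction thus depended on 1 library at a time: it was -0.21 without replicate 11 and 0.32 without replicate 13. Leaving both out narrows the allowed range to 85.1 to 114% of HKII+/+. Replicates 11 and 13 were also the libraries with the most ventricular markers, and the part of that in their Arrdc4 level was not tested.

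Mlxip, which encodes MondoA, was with TMM scaling the steadiest of the 5 over all 12 libraries and not displaced in the marked ones. It lies at chr5:123394798-123457932 on the plus strand (ENSMUSG00000038342.15). It ranged from 99.61 (replicate 14) to 115 CPM (replicate 21) in HKII+/+ hearts, with a median of 106.5, and from 95.04 (replicate 12) to 122.3 CPM (replicate 20) in HKII+/- hearts, with a median of 112.9. The HKII+/+ range lay inside the HKII+/- range, and replicates 11 and 13, at 114.4 and 107.4 CPM, were in the middle. With total counts as the only scaling they were the lowest libraries, at 89.86 and 81.61 CPM against 103.9 to 129.8 CPM elsewhere. The means were 110 ± 10.8 and 107 ± 5.47 CPM (SD, n = 6 each). As a log2 fold change this was 0.04 (SE 0.09, interval -0.16 to 0.24, edgeR adjusted p = 1), and 0.03 (SE 0.07, interval -0.13 to 0.19) without the marked libraries. In the 10 unmarked libraries this allows a level between 91.4% and 114% of HKII+/+.

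Mlxipl, which encodes ChREBP, lies on the same chromosome at chr5:135089890-135138382 on the plus strand (ENSMUSG00000005373.13). In HKII+/+ hearts it was at 31.28, 53.9, 54.34, 59.87, 63.88 and 64.07 CPM in replicates 13, 17, 15, 14, 18 and 21. In HKII+/- hearts it was at 35.9, 50.9, 51.88, 55.61, 59.69 and 68.15 CPM in replicates 11, 12, 16, 20, 19 and 22. The marked library was the lowest of each genotype, opposite to its place for Arrdc4, and the unmarked libraries overlapped. Its log2 fold change stood at -0.02 (SE 0.19, interval -0.43 to 0.39, edgeR adjusted p = 1), and -0.05 (SE 0.08, interval -0.23 to 0.14, adjusted p = 0.9999) without the marked libraries. With the atrial marker level as a covariate and without the marked libraries it was -0.13 (SE 0.06, edgeR unadjusted p = 0.0469, adjusted p = 0.8829). In that fit 723 of 14139 genes had an edgeR unadjusted p below 0.05. Without replicates 11, 13, 19 and 22 the log2 fold change of Mlxipl was -0.16 (SE 0.07, interval -0.32 to 0.00017, edgeR unadjusted p = 0.0502, adjusted p = 0.7063). There 1010 of 14378 genes had an edgeR unadjusted p below 0.05, and the left-out replicate 22 held the highest Mlxipl level.

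Mlx, the shared dimer partner, lies at chr11:101087277-101092207 on the plus strand (ENSMUSG00000017801.15). It ranged from 15.94 CPM in replicate 13 to 18.37 in replicate 18 among HKII+/+ hearts (median 17.55), and from 12.97 in replicate 11 to 19.77 in replicate 19 among HKII+/- hearts (median 17.92). Replicates 11 and 13 were its lowest libraries, and in the unmarked ones the range was only 16.84 to 19.77 CPM. There the means were 18.4 ± 0.838 CPM in HKII+/- and 17.6 ± 0.549 CPM in HKII+/+ (SD, n = 5 each), and 2 HKII+/- libraries stood above all HKII+/+ libraries. The log2 fold change came to 0.01 (SE 0.11, interval -0.23 to 0.26, edgeR adjusted p = 1) over 12 libraries and 0.07 (SE 0.05, interval -0.05 to 0.18, adjusted p = 0.9999) without the marked ones. That interval, from 96.6 to 113% of HKII+/+, was the narrowest of the 5 genes.

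The intervals of the 5 genes and of Hk2 are drawn side by side.

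**Figure D2:**
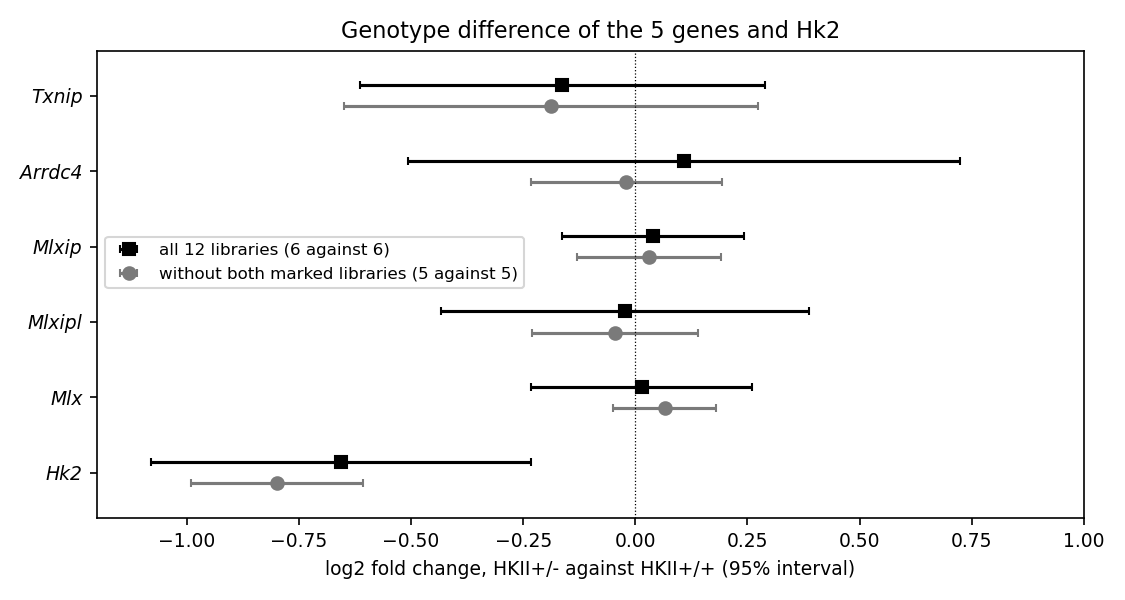
Log2 fold change of HKII+/- against HKII+/+ (horizontal axis) with its 95% interval from edgeR for the 5 genes and Hk2; black squares use 12 libraries and grey circles the 10 unmarked ones. All intervals of the 5 genes cross 0 (dotted line), those of Hk2 do not, and leaving out both marked libraries shortens the intervals of Arrdc4, Mlxipl and Mlx but not that of Txnip.

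Levels of different genes were compared per kilobase of exon, since longer transcripts collect more reads. In the 10 unmarked libraries Txnip stood at 144 ± 40.0 CPM per kb, Mlxip at 13.01 ± 1.08, Mlxipl at 10.51 ± 1.05, Mlx at 9.01 ± 0.396 and Arrdc4 at 4.21 ± 0.452 (SD, n = 10). By this measure Txnip ranked 228 of 13445 genes with a length, Mlxip 2838, Mlxipl 3433, Mlx 3921 and Arrdc4 6586. Txnip was above Mlxip in 12 of 12 libraries, with a median ratio of 9.23 in the unmarked ones. Mlxip was above Mlxipl in 12 of 12 (median ratio 1.24, range 1.099 to 1.463, in the unmarked ones). The lengths used, 8326 and 5538 bases, join all annotated exons of each gene, and the isoforms present were not measured. The order by so small a margin therefore holds only for these lengths. Mlxipl was above Mlx in 10 of 12 (median ratio 1.14), the exceptions being replicates 11 and 13. Mlx was above Arrdc4 in 11 of 12, with replicate 11 the exception.

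The 5 genes differed in how far hearts of 1 genotype spread. Within genotype, over the unmarked libraries, the SD of log2 CPM was 0.39 for Txnip, larger than that of 97.6% of the 7669 genes with an average log2 CPM of at least 4. It was 0.17 for Arrdc4 (above 82.0% of genes), 0.15 for Mlxipl (75.6%), 0.12 for Mlxip (63.6%) and 0.05 for Mlx (5.45%), and the median gene had 0.11. With all 12 libraries the median gene had 0.38 and Txnip, at 0.36, lay below it (47.1% of 7593 genes). Among the unmarked hearts Txnip was thus more variable than nearly all such genes and Mlx steadier than most.

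**Figure D3:**
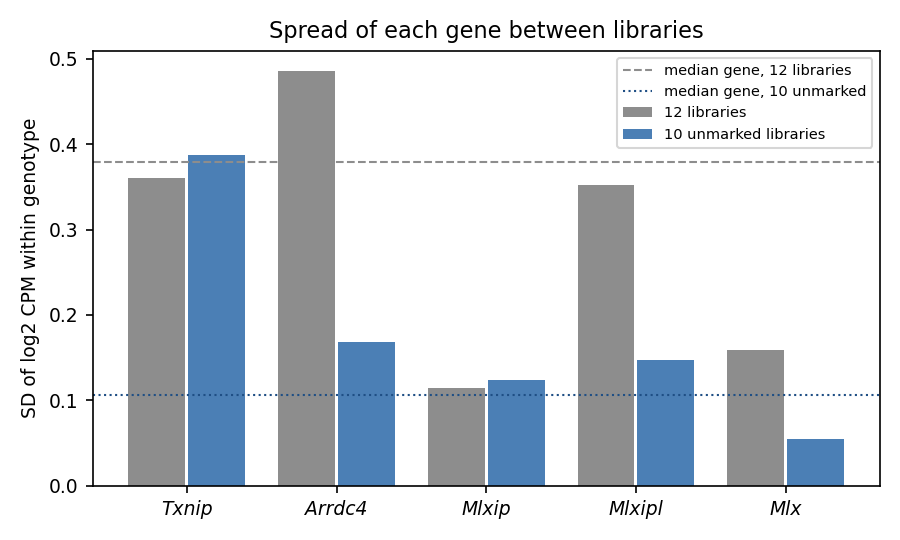
SD of log2 CPM within genotype (vertical axis, from 0) for the 5 genes, in grey over 12 libraries and in blue over the 10 unmarked ones; the dashed and dotted lines are the median gene with the same libraries. Txnip keeps its spread when both marked libraries are left out (0.36 and 0.39), while Arrdc4 goes from 0.49 to 0.17.

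Ratios within a library do not depend on its scaling. Read counts of Txnip were 16.7 to 37.8 times those of Arrdc4 in the unmarked libraries, but 8.98 times in replicate 11 and 11.9 times in replicate 13. The log2 ratio was 4.35 ± 0.70 in HKII+/- and 4.59 ± 0.54 in HKII+/+ (SD, n = 6 each; difference -0.24, exact two-sided permutation p = 0.515 over 924 splits). Read counts of Mlxipl were 0.455 to 0.605 of those of Mlxip in the unmarked libraries and 0.314 and 0.291 in replicates 11 and 13. That log2 ratio differed by -0.05 between genotypes (exact permutation p = 0.736), and by -0.08 without the marked libraries (exact permutation p = 0.357 over 252 splits). The log2 ratio of Mlx to Mlxip plus Mlxipl differed by -0.01 (exact permutation p = 0.879), and by 0.07 without the marked libraries (exact permutation p = 0.365). None of these 3 differences exceeded the spread between libraries.

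Across the 10 unmarked libraries the genes were compared pair by pair, 10 pairs in all, with log2 CPM. The largest coefficient was that of Mlxip with Mlxipl, at r = 0.51 (permutation p = 0.131, adjusted p = 0.563; Spearman rho = 0.58, permutation p = 0.0881, adjusted p = 0.44; r = 0.61 without the 2 libraries farthest from the median of Mlxip). With total counts as the only scaling, Mlxip with Mlxipl had r = 0.17 and rho = 0.37. The r farthest from 0 was then -0.54, for Arrdc4 with Mlxip. With TMM scaling Txnip and Arrdc4, which are known as targets of the same factors, had r = 0.40 (permutation p = 0.261, adjusted p = 0.563), rho = 0.20 (permutation p = 0.581, adjusted p = 0.733) and r = 0.32 without the farthest 2. Txnip and Mlxipl had r = 0.38 (permutation p = 0.273, adjusted p = 0.563), rho = 0.59 (permutation p = 0.0787, adjusted p = 0.44) and r = 0.23 without the farthest 2. The remaining 7 pairs had r from -0.47 to 0.30. Without the 2 libraries farthest from the median, r went from 0.30 to -0.68 for Txnip with Mlx (replicates 18 and 19 left out) and from -0.47 to -0.03 for Arrdc4 with Mlxip (replicates 20 and 21 left out), so these 2 values rest on those libraries. For the other 5 it kept its sign, and 0 of 10 pairs passed the adjusted threshold. With replicates 11 and 13 included, Arrdc4 had r = -0.87 with Mlxipl (permutation adjusted p = 0.0273) and -0.87 with Mlx (adjusted p = 0.0236), and Mlxipl had 0.74 with Mlx (adjusted p = 0.0446). Those libraries form a cluster of their own, and without them r was -0.37, -0.17 and 0.21, so the 3 relations rest on 2 libraries.

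**Figure D4:**
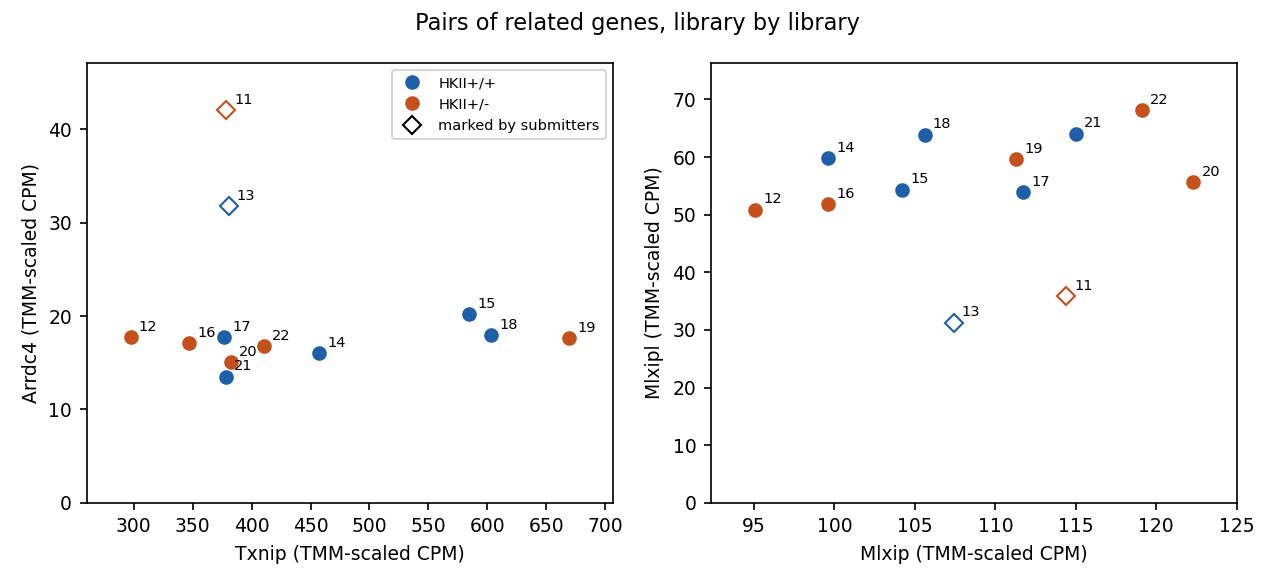
Left, Arrdc4 against Txnip, and right, Mlxipl against Mlxip, in TMM-scaled CPM; each point is 1 library with its replicate number, blue for HKII+/+ and orange for HKII+/-, and open diamonds are the marked libraries. Txnip ranges from 297 to 670 CPM while Arrdc4 of the unmarked libraries stays between 13.5 and 20.2, and replicates 11 and 13 lie off the other points in both panels.

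The genes whose log2 CPM was most like that of each of the 5 over the 10 unmarked libraries were taken from 11021 tested genes with an average log2 CPM of at least 2. For Txnip these were Rrad (r = 0.94), a small GTPase of muscle, Vamp1 (0.92), a vesicle fusion protein, and Aph1a (0.90), a subunit of gamma-secretase. For Arrdc4 they were Cd68 (0.92), Hcls1 (0.89) and Mif4gd (0.88), and for Mlxip they were Pcnt (0.96), Kalrn (0.93) and Odf2 (0.93). For Mlxipl they were Psmd13, Dnlz and Tomm7 (0.95, 0.94 and 0.94), and for Mlx they were Arpc1a, Igflr1 and Ift81 (0.94, 0.93 and 0.89). These are the highest values among many genes over 10 libraries and are given as a description. With the marked libraries included, r was 0.83 for Vamp1, 0.99 for Mif4gd, 0.90 for Kalrn and 0.91 for Ift81. For Hcls1 it was 0.70, and for Rrad, Aph1a, Pcnt and Odf2 it was 0.49, 0.47, 0.26 and 0.54. The remaining 6 were below 0, among them Cd68 (-0.83) and all those of Mlxipl (-0.88 to -0.48).

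Genes around the 5 were read from 6 lists by function. Over all genes the median log2 fold change was -0.0013 with 12 libraries and -0.0046 without the marked ones, and 49.5% and 47.3% of genes were higher in HKII+/-. Among the 6 alpha-arrestins, 3 were higher and 3 lower in HKII+/- and 0 were called (median 0.02, and -0.05 without the marked libraries). Per kilobase, Arrdc3 stood at 7.77 and Arrdc2 at 6.34 CPM per kb in the unmarked libraries, between Mlx and Arrdc4, while Arrdc1 was at 2.27 and Arrdc5 at 0.414. Arrdc5 had the smallest p of the family, with 0.498 ± 0.106 CPM in HKII+/- and 0.391 ± 0.111 CPM in HKII+/+ (SD, n = 6 each; log2 fold change 0.36, edgeR unadjusted p = 0.164, adjusted p = 1). Arrdc3, which is known for trafficking of membrane receptors, was at 5.274 and 8 CPM in replicates 11 and 13 against 31.3 to 59.0 elsewhere, the opposite side from Arrdc4. Arrdc2 was on the same side as Arrdc4, at 53.85 and 47.74 CPM there against 9.377 to 31.88 elsewhere.

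Of the 11 genes of the thioredoxin system, whose central protein is bound by TXNIP, 2 were higher, 9 lower and 0 called over 12 libraries (median -0.05). Without the marked libraries 6 were higher and 5 lower (median 0.0046), with fold changes only from -0.05 to 0.04. The peroxiredoxins Prdx5, Prdx2 and Prdx3 were the most abundant, at 294 ± 38.3, 253 ± 24.6 and 262 ± 20.4 CPM in unmarked HKII+/- hearts and 293 ± 13.6, 252 ± 12.1 and 264 ± 13.5 CPM in unmarked HKII+/+ hearts (SD, n = 5 each). Txnrd3, a thioredoxin reductase, had a log2 fold change of -0.09 (SE 0.11, edgeR adjusted p = 1) and Prdx2 of -0.14 (SE 0.13), which without the marked libraries was 0.0046.

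The MYC and MAX network shares the E-box and the dimer logic of MondoA and ChREBP. Of its 10 tested genes, 8 were higher, 2 lower and 0 called (median 0.07), and without the marked libraries 9 were tested, of which 5 were higher and 4 lower (median 0.02). Max, Mxi1 and Mga, a partner and its repressive binding proteins, were at 56.9 ± 4.19, 55.5 ± 1.35 and 46.8 ± 7.96 CPM in unmarked HKII+/- hearts and 55.4 ± 4.99, 54.8 ± 3.004 and 45.4 ± 8.53 CPM in unmarked HKII+/+ hearts (SD, n = 5 each). The largest fold changes were those of rare transcripts set by replicate 11. Mycl was at 3.11 CPM there and at no more than 0.764 elsewhere, and its log2 fold change went from 1.03 to -0.05 without the marked libraries. Mxd3 was at 1.32 CPM there and at no more than 0.656 elsewhere (log2 fold change 0.56, edgeR adjusted p = 1).

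Of 26 genes known as targets of ChREBP in liver and fat, 22 passed the filter, and Pklr, G6pc, Fgf21 and Slc2a2 did not. Pklr was at 0.128 CPM or less in every heart. Of the 22, 12 were higher, 10 lower and 0 called (median 0.01), and without the marked libraries 6 were higher and 16 lower, again with 0 called (median -0.06). The most abundant were Acacb, the acetyl-CoA carboxylase of muscle, at 694 ± 88.4 and 683 ± 33.4 CPM in unmarked HKII+/- and HKII+/+ hearts, and Slc2a4, the insulin-responsive glucose transporter, at 453 ± 55.8 and 449 ± 9.96 CPM (SD, n = 5 each). Fasn, fatty acid synthase, was at 812 CPM in replicate 11 and at 45.1 to 146 CPM in the other 11 libraries. Its log2 fold change was 1.31 (SE 0.71, edgeR adjusted p = 1) and went to -0.05 without the marked libraries. Gpd1, which makes glycerol 3-phosphate for triglyceride, was at 890 CPM in replicate 11 and at 81.2 to 201 CPM elsewhere (log2 fold change 0.85, and -0.14 without the marked libraries). Replicate 11 was also the library with the most adipocyte markers. The 5 markers summed to 430.1 to 1465 CPM in HKII+/- and 417.9 to 576 CPM in HKII+/+, and 0 of the 5 were at 0 throughout a genotype. Their part in these 2 values was not tested. The 5 hepatocyte markers summed to 25.5 CPM in HKII+/+ replicate 14 and to at most 2.37 CPM in the others.

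**Figure D5:**
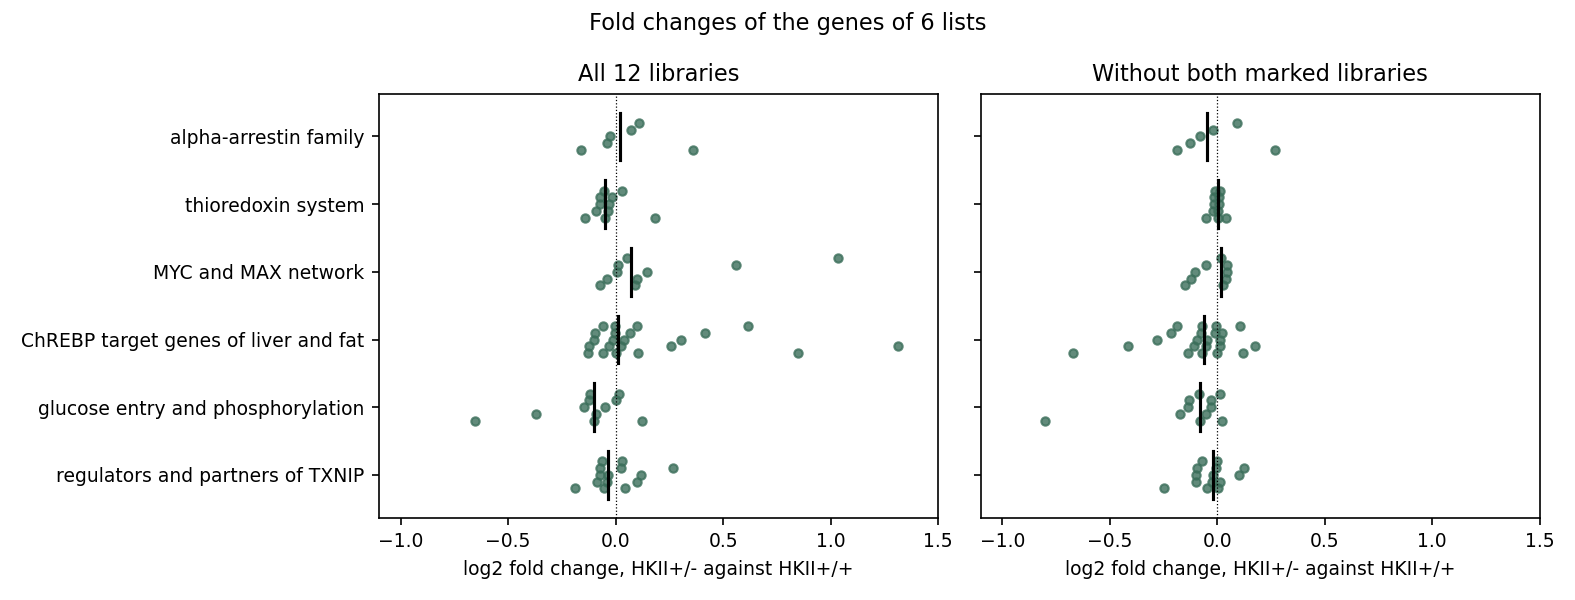
Log2 fold change of HKII+/- against HKII+/+ (horizontal axis) for each tested gene of the 6 lists (points) with the list median (bar), over 12 libraries on the left and without both marked libraries on the right; the dotted line is 0. The far points of the MYC and MAX network (1.03) and of the ChREBP targets (1.31) are absent on the right, and the point of Hk2 at the far left stays.

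Of 12 genes for glucose entry and phosphorylation, 11 were tested, 3 were higher and 8 lower over all libraries (median -0.10), and 0 were called, with Hk2 at an unadjusted p of 0.0054 in edgeR. Without the marked libraries 2 were higher and 9 lower (median -0.08), and 1, Hk2, was called lower. Hk1, the other main hexokinase of heart, was at 241 ± 27.2 CPM in HKII+/- and 237 ± 18.3 CPM in HKII+/+ (SD, n = 5 each), a difference of 0.02 on the log2 scale. Slc2a1, the basal glucose transporter and a cargo of TXNIP, was at 24.2 ± 1.79 and 26.5 ± 1.53 CPM (SD, n = 5 each; log2 fold change -0.13, SE 0.06, edgeR unadjusted p = 0.0595, adjusted p = 0.9999). Over all 12 libraries that value was also -0.13 (SE 0.10).

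Of 14 regulators and partners of TXNIP, 6 were higher, 8 lower and 0 called (median -0.04), and without the marked libraries 4 were higher and 10 lower (median -0.02). The kinases Akt1, Akt2 and Prkaa2, which are known to phosphorylate TXNIP or to control its stability, were at 246 ± 23.1, 197 ± 5.33 and 218 ± 18.7 CPM in unmarked HKII+/- hearts and at 249.3 ± 14.1, 200 ± 14.3 and 225 ± 28.3 CPM in unmarked HKII+/+ hearts (SD, n = 5 each). Nlrp3, the inflammasome sensor that binds TXNIP, was rare, at 0.630 ± 0.202 and 0.708 ± 0.157 CPM (SD, n = 6 each; log2 fold change -0.19, SE 0.25, edgeR adjusted p = 1). Nedd4l, a ubiquitin ligase, had a log2 fold change of 0.10 (SE 0.14, edgeR adjusted p = 1).

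Reads shared with other genes could touch 4 of the 5. The exons of Txnip overlap 606 bases of the antisense gene Gm15441, which counted 6 to 18 reads per library against 5801 to 22178 for Txnip. Exons of Mlx share 385 bases with Psmc3ip on the other strand, which counted 26 to 110 reads against 243 to 917. Mlxip and Mlxipl overlap the antisense genes Gm15747 (267 bases) and Gm43500 (235 bases), which have no row under these symbols. Without a stated strand setting, reads of a gene and of its partner on the other strand cannot be told apart.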

How the data were processed

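The deposited values are whole-number counts of reads per gene symbol, 1 table for each of 12 libraries, with no scaling by the authors. Per the labels' protocols, poly(A) RNA was sequenced as single-end reads. The submitters' processing notes name STAR 2.4.0, featureCounts 1.4.4 and the builds mm10 and GRCm38. The sources used here give neither the strand setting nor an annotation release. Rows naming no gene numbered 0.

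Genotype came from the sample titles. Members, gene lists and cell type markers were chosen with earlier results of these data known. The main test was edgeR 4.0.16 (glmQLFit, glmQLFTest; R 4.3.3) after filterByExpr (minimum count 10), with TMM scaling, no covariate and all 12 libraries; p-values were adjusted over all tested genes by Benjamini-Hochberg, with a threshold of 0.05. CPM use the library total times its TMM factor. These factors were 0.787 and 0.76 in replicates 11 and 13 and 0.992 to 1.09 elsewhere. Ratios (pseudocount 0.5 counts) were compared by exact permutation tests and correlations with 100000 permutations in Python 3.11.15. Alternatives were other scalings and filters, DESeq2 1.42.0, limma 3.58.1 voom with and without sample quality weights, left-out libraries and an atrial marker covariate (36 besides the main fit). DESeq2 and quality weights on the 10 unmarked libraries were chosen after seeing the data. The steps were tested on simulated data.

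Named genes were the 5 members, Hk2, the 3 most abundant and the 2 with the smallest p of each of 6 lists, and the 3 genes most correlated with each member. The single-library values of Fasn, Arrdc2 and Arrdc3, Pklr and the 4 untested targets were singled out after their values were seen. Tkfc was read under its older symbol. Exon lengths and gene coordinates came from GENCODE vM21. A chi-square check for duplicated libraries (genes of 20 or more counts) gave at least 7.03 per degree of freedom.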

Additional observations from a re-analysis of the deposited data

Results flagged for a closer look

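In 32 groups of 5 or 6 libraries checked for a single value far from the rest, 6 had one, all of them groups of 6 libraries. The limits used give about 1 in 20 groups by chance. The groups share libraries and counts, so that rate cannot be set against the number found. Of the 6 flagged values, 5 were in a marked library. Arrdc4 was at 42.07 CPM in HKII+/- replicate 11, where the next library of that genotype was at 17.78, and at 31.8 CPM in HKII+/+ replicate 13, where the next was at 20.24. Mlx was at 12.97 CPM in HKII+/- replicate 11, and the next lowest library of that genotype was at 17.78. Mlxipl was at 31.28 CPM in HKII+/+ replicate 13, against 53.9 in the next lowest. The log2 ratio of Mlxipl to Mlxip was -1.779 in HKII+/+ replicate 13, and the next lowest was -1.05. The remaining one was in a library that the submitters had not marked: Txnip was at 669.5 CPM in HKII+/- replicate 19, and the next highest of that genotype was at 410.3. Its gap was 0.696 of the range, above the limit of 0.625 for 6 libraries but below the limit of 0.71 for the 5 unmarked ones, where it did not stand out.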

How the results depend on the processing

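No paired analysis was run because the labels name no pairs of libraries. Depth limits Mlx most, with 243 to 917 counts per library, and Txnip least, with 5801 to 22178. In 37 settings 0 of the 5 genes were called. Txnip stayed below 0 in all of them, but they reuse the same libraries and are not independent. The sign of the others, all close to 0, did not hold. Arrdc4 was -0.08 with quality weights (also without the marked libraries, -0.079), -0.02 without the marked libraries in edgeR (-0.02016) and DESeq2 (-0.0198), -0.038 without replicates 19 and 22 as well, -0.0217 with the atrial covariate there, and -0.21 to 0.32 with single libraries left out. Mlxip was -0.01986 without the marked libraries and replicates 19 and 22, -0.005714 with the atrial covariate and without the marked libraries, and -0.012 to 0.07958 with libraries left out. Mlx was -0.017 with the atrial covariate on 12 libraries, and -0.023 to 0.089 with libraries left out, and Mlxipl ran from -0.13 to 0.073 with single libraries left out and was -0.162 without the marked libraries and replicates 19 and 22.

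Genes called across all genes were 2 with quality weights, 1 without the marked libraries (1 also with quality weights, with replicates 19 and 22 left out, or with the atrial covariate), 3 with DESeq2 there, and 0 to 2 with libraries left out. Of the glucose entry list 1 gene was called in each of those settings, and 0 to 1 with libraries left out. Without the marked libraries Prdx2 was 0.0046 (DESeq2 0.006343), Mycl -0.051, Fasn -0.052 (DESeq2 -0.05045, quality weights -0.14) and Gpd1 -0.14 (DESeq2 -0.13, quality weights -0.13, atrial covariate -0.038, without replicates 19 and 22 -0.025). With quality weights on 12 libraries Fasn was -0.14 and Gpd1 -0.13. With libraries left out Prdx2 ran from -0.18 to 0.04008, Mycl from -0.22 to 1.29, Fasn from -0.43 to 1.55, Gpd1 from -0.30 to 1.04 and Nedd4l from -0.018 to 0.20. Leaving out replicate 11 alone turned Arrdc4, Gpd1, Fasn (-0.056) and Mlxipl, and Mlxipl was also above 0 without replicate 14 (0.005), 18 (0.026) or 21 (0.027) alone. The cause of the reversals was not tested.

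The log2 ratio of Mlx to Mlxip plus Mlxipl differed by 0.067 without the marked libraries and by -0.052 to 0.047 with single libraries left out, and that of Mlxipl to Mlxip by -0.20 to 0.075. Over 12 libraries the correlation was -0.083 for Txnip with Arrdc4, 0.018 for Arrdc4 with Mlxip, -0.87 for Arrdc4 with Mlxipl and with Mlx (-0.8739 and -0.8704), -0.06989 for Mlxip with Mlx and 0.74 for Mlxipl with Mlx. With total counts as the only scaling it was -0.035 for Txnip with Mlxip, 0.15 for Arrdc4 with Mlx, -0.066 for Mlxip with Mlx and -0.26 for Mlxipl with Mlx. With libraries left out it ran from -0.22 to 0.22 for Txnip with Mlxip, from -0.25 to 0.68 for Txnip with Mlx and from -0.43 to 0.22 for Arrdc4 with Mlx.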
